A study of Homo sapiens with 4 samples.

Results

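MSMP and 8 genes that lie near it on the short arm of chromosome 9 were followed through ESS2 knockdown in PC3 and DU145 cells. The 9 genes were MSMP, NPR2, RGP1, GBA2, CREB3, TLN1, HINT2, SPAG8 and TMEM8B, of 25121 genes with a symbol on the array, and all 9 were well above background on at least 1 array of each cell line. MSMP was chosen by its own value, because it had the largest decrease in PC3 cells of the genes that were well above background on the control and the knockdown array, so its PC3 values are a description and were not tested. The other 8 genes were chosen as its neighbours, and the question was whether they changed with it.

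PC3 and DU145 are established prostate cancer cell lines that grow without androgen. ESS2 is a nuclear protein that associates with the spliceosome and with transcription factors. RNA was measured on 4 one-colour Agilent arrays, 1 each for PC3-shC, PC3-shESS2, DU145-shC and DU145-shESS2 cells, in which shC is an shRNA against luciferase and shESS2 an shRNA against ESS2. The labels describe transduced cells, whereas the methods of the study describe a plasmid transfection followed by puromycin selection. All 4 cultures therefore carried an shRNA and were kept in RPMI1640 medium with 10% fetal bovine serum. As there was 1 array per condition, no difference within a cell line has a replicate check, and it is not stated whether any cell population was a clone.

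MSMP encodes a small secreted protein with many cysteines, related to the prostate secretory protein beta-microseminoprotein. It was first described in the medium of PC3 cells and is known as a ligand of the chemokine receptor CCR2. The neighbours have unrelated roles. NPR2 is the receptor for C-type natriuretic peptide, RGP1 works with RIC1 to activate RAB6 at the Golgi apparatus, and GBA2 degrades glucosylceramide outside lysosomes. CREB3 is a transcription factor held in the endoplasmic reticulum membrane, and TLN1 encodes talin, which links integrins to actin. HINT2 is a mitochondrial nucleotide hydrolase, SPAG8 is a sperm-associated antigen, and TMEM8B is a membrane protein linked to cell adhesion.

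In the RefSeq gene table of GRCh38.p14 the order of the genes on the array was TLN1, CREB3, GBA2, RGP1, MSMP, NPR2, SPAG8, HINT2, FAM221B and TMEM8B, in which only FAM221B was not among the 9 genes. MSMP is read from the minus strand and lies within the interval of RGP1, which is read from the plus strand. GBA2 and RGP1 are read away from each other, with 58 bases between their annotated starts, and TLN1 and CREB3 are arranged in the same way with 470 bases between them. RefSeq promoter windows, from 250 bases before to 50 bases after each start, were found for 7 of the 9 genes, and not for HINT2 and SPAG8. The stretches upstream of MSMP and between GBA2 and RGP1 are shown because MSMP and GBA2 had the lowest ratios in PC3 cells, while RGP1 overlaps MSMP and adjoins GBA2. The MSMP stretch is chr9:35754277-35754376 on the minus strand, with TATAAA in capitals, and the other is chr9:35749229-35749286 on the plus strand, with CCGGAA and its reverse complement in capitals. Both have the build GRCh38.p14 and are written 5′ to 3′.
MSMP, the 100 bases before the start: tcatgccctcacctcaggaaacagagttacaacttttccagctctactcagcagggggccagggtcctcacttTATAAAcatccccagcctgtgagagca
Between GBA2 and RGP1: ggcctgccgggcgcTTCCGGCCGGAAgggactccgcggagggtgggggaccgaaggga

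The TATAAA of MSMP, a TATA box sequence, began 27 bases before its start, and a match on the other strand overlapped it. Among the 7 windows searched on both strands, TATAAA was found in that of MSMP alone, and it was found in 11.5% of all 35093 windows. The AP-1 sequence TGANTCA was also found in the MSMP window alone, against 7.71% of all windows. GGGCGG, the GC box sequence, was found in the other 6 windows and not in that of MSMP, against 44.9% of all windows. The ETS-type sequence CCGGAA was searched after the sequences were seen and was found in the windows of RGP1, GBA2, CREB3 and TLN1, against 17.3% of all windows. The windows of GBA2 and RGP1 share bases, as do those of CREB3 and TLN1, so 8 matches over these windows were 4 distinct places. The NF-κB consensus was found in the same 4 windows and not in that of MSMP, against 11.3% of all windows, and the matches of GBA2 and RGP1 were 1 place, so there were 3 places in all. These matches describe letters only, and binding was not measured here.

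ESS2 itself was lower in both knockdown cultures. Its signal was 133 in PC3-shC, 53.6 in PC3-shESS2, 85.7 in DU145-shC and 17.3 in DU145-shESS2 cells, which is 2.74-fold lower in PC3 and 5.09-fold lower in DU145. The signals are background-subtracted intensities of each array, and every fold or log2 ratio was taken after each array was scaled to its 75th percentile. Between 50.8 and 52.2% of the spots were well above background on the PC3 arrays, and 51.9 and 52.6% on the DU145 arrays. CTNNA1, which PC3 cells are known to have lost, was well above background on both DU145 arrays and on neither of the PC3 arrays. KRT8, KRT18, EPCAM and CDH1 were well above background on all 4 arrays, whereas KLK3 was on none. The array pairs of the 2 cell lines were on separate slides and scans, so a difference between lines cannot be told apart from one between slides.

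MSMP had the largest decrease in PC3 cells among the genes well above background on both arrays. Its single probe gave a signal of 128000 in PC3-shC, 92.3 in PC3-shESS2, 193 in DU145-shC and 99.9 in DU145-shESS2 cells, and it was well above background and not saturated on each array. One array, PC3-shC, was far above the other 3, of which DU145-shC was the highest, with a log2 ratio of −1.52 for PC3-shESS2 over DU145-shC cells. The log2 ratio of knockdown over control was −10.58 ± 0.21 in PC3, or 1529-fold lower, and it ranked 1 of 15763 genes well above background on both arrays. The error here and below is that of the spots' signals as Agilent Feature Extraction gives it, and it leaves out variation between hybridizations and between cultures. The next largest among these genes were BDKRB2 with a log2 ratio of −7.85 and CSF3 with −7.43. SAA1, which was not well above background in PC3-shESS2 cells, was at least 1175-fold lower, so its decrease could not be ranked against that of MSMP.

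In DU145 cells the decrease in MSMP was far smaller. The log2 ratio was −0.99 ± 0.21, or 1.99-fold lower, just short of 2-fold, and it ranked 279 of 15933 genes. The control cells differed by 9.06 on the log2 scale, with MSMP 535-fold higher in PC3-shC than in DU145-shC cells. After knockdown the order was turned, with a log2 ratio of −0.53 for PC3-shESS2 over DU145-shESS2 cells. Its PC3 log2 ratio minus its DU145 log2 ratio was −9.59, a difference that was not tested.

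**Figure D1:**
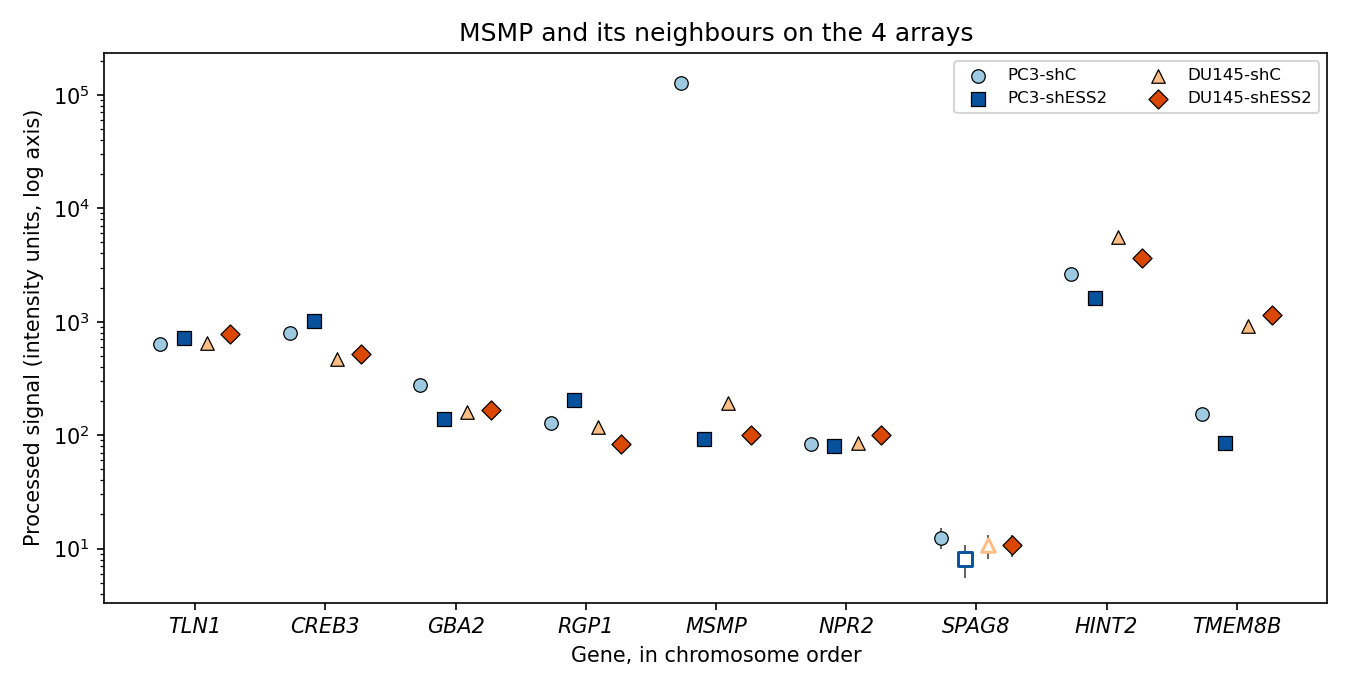
Processed signal (log axis) of the 9 genes in chromosome order on the 4 arrays, with bars for the error of each signal as Feature Extraction gives it and open symbols for signals not well above background. MSMP in PC3-shC cells stands at 128000, while its other 3 signals lie between 92.3 and 193; levels are to be compared within a gene, since each gene has its own probe.

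The neighbours did not share the size of the MSMP decrease. In PC3 cells 2 of the 8, GBA2 and TMEM8B, were lower by more than 2-fold and 0 were higher. Over all 16764 genes compared in PC3, the share past 2-fold was 3.87% downwards and 3.88% upwards. The count of 2 lay close to the 2-fold line and was 1 or 0 under 4 of 9 other ways of processing. In DU145 cells 0 of the 8 passed 2-fold in either direction, against 2.47% lower and 2.36% higher of 16842 genes. The median log2 ratio of the 8 was −0.40 in PC3 and 0.08 in DU145, beside −0.06 and −0.02 over all genes compared. The log2 ratio was below 0 for 5 of the 8 in PC3, beside 9335 of all 16764 genes, and for 3 of the 8 in DU145, beside 8887 of 16842. TLN1 in PC3 and SPAG8 in DU145 were close to 0 and took the other sign under other scalings.

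RGP1, whose interval holds MSMP, did not follow it in PC3 cells. Its signal was 127 in PC3-shC, 206 in PC3-shESS2, 119 in DU145-shC and 83.3 in DU145-shESS2 cells. Its highest value was in the knockdown cells of PC3 and its lowest in those of DU145. The log2 ratio was 0.56 ± 0.21 in PC3 and −0.55 ± 0.21 in DU145, so the direction differed between the lines.

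GBA2, which starts next to RGP1 and is read the other way, had the lowest PC3 ratio of the 8. Its signal was 279 in PC3-shC, 139 in PC3-shESS2, 159 in DU145-shC and 168 in DU145-shESS2 cells. PC3-shC cells were highest and PC3-shESS2 cells lowest, as for MSMP, but over a far smaller range. The log2 ratio was −1.15 ± 0.21 in PC3, or 2.21-fold lower, and 0.04 ± 0.21 in DU145. With normexp background correction the PC3 ratio was −0.95, short of 2-fold.

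NPR2, on the other side of MSMP, differed between knockdown and control by less than the error of its ratio in both lines. Its signal was 83.5 in PC3-shC, 81.0 in PC3-shESS2, 84.7 in DU145-shC and 100 in DU145-shESS2 cells. The log2 ratios, −0.18 ± 0.21 in PC3 and 0.20 ± 0.21 in DU145, were of opposite sign. Between the lines, after scaling, NPR2 was lower in PC3 than in DU145, with a log2 ratio of −0.33 for the control cells and −0.72 for the knockdown cells.

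SPAG8 was close to background throughout. Its signal was 12.5 in PC3-shC and 10.8 in DU145-shESS2 cells, and it was 8.12 in PC3-shESS2 and 10.7 in DU145-shC cells, where it was not well above background. For PC3 the dim signal was raised to the lowest signal called well above background on its array. The log2 ratio was then −0.61 ± 0.55, or 1.53-fold lower, close to the size of its error. With normexp background correction the PC3 ratio was −0.25. In DU145 no fold is given, as the control signal was not well above background, and no difference was detectable at these signals.

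HINT2 was lower in the knockdown cells of both lines. Its signal was 2620 in PC3-shC, 1630 in PC3-shESS2, 5600 in DU145-shC and 3650 in DU145-shESS2 cells. Both DU145 arrays were above both PC3 arrays, and within each line the control was the higher. The log2 ratio was −0.83 ± 0.20 in PC3 and −0.66 ± 0.20 in DU145, or 1.77-fold and 1.58-fold lower. Apart from MSMP it was the only one of the 9 genes with a decrease larger than the error of its ratio in both lines. This rule was not counted over all genes, so it does not set HINT2 apart from genes outside the 9. ARHGEF39, a gene within 20 of MSMP, was also lower in both, with log2 ratios of −0.97 in PC3 and −1.09 in DU145.

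TMEM8B, the farthest of the 8 on that side, depended on the probe. Its brighter probe gave 155 in PC3-shC, 84.6 in PC3-shESS2, 908 in DU145-shC and 1140 in DU145-shESS2 cells, with log2 ratios of −1.01 ± 0.21 in PC3 and 0.29 ± 0.20 in DU145. Its other probe gave 89.0, 80.6, 90.5 and 83.4 in the same order of arrays, with log2 ratios of −0.28 ± 0.21 and −0.16 ± 0.21. The decrease of 2.02-fold in PC3 was thus seen by 1 of 2 probes, and the probes differed in sign in DU145. The brighter probe is assigned to different transcripts of TMEM8B in the annotation of the PC3 files and of the DU145 files. On the mean of both probes the PC3 log2 ratio was −0.65.

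CREB3 and TLN1, a head-to-head pair on the far side of GBA2, were above 0 by small amounts in both lines. The signal of CREB3 was 788 in PC3-shC, 1010 in PC3-shESS2, 468 in DU145-shC and 520 in DU145-shESS2 cells, with log2 ratios of 0.22 ± 0.20 and 0.11 ± 0.20. TLN1 had 641, 712, 648 and 785 in the same order, with log2 ratios of 0.01 ± 0.20 and 0.24 ± 0.20. Scaled to the median, the PC3 ratio of TLN1 was −0.09. Neither gene came near 2-fold in either line.

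**Figure D2:**
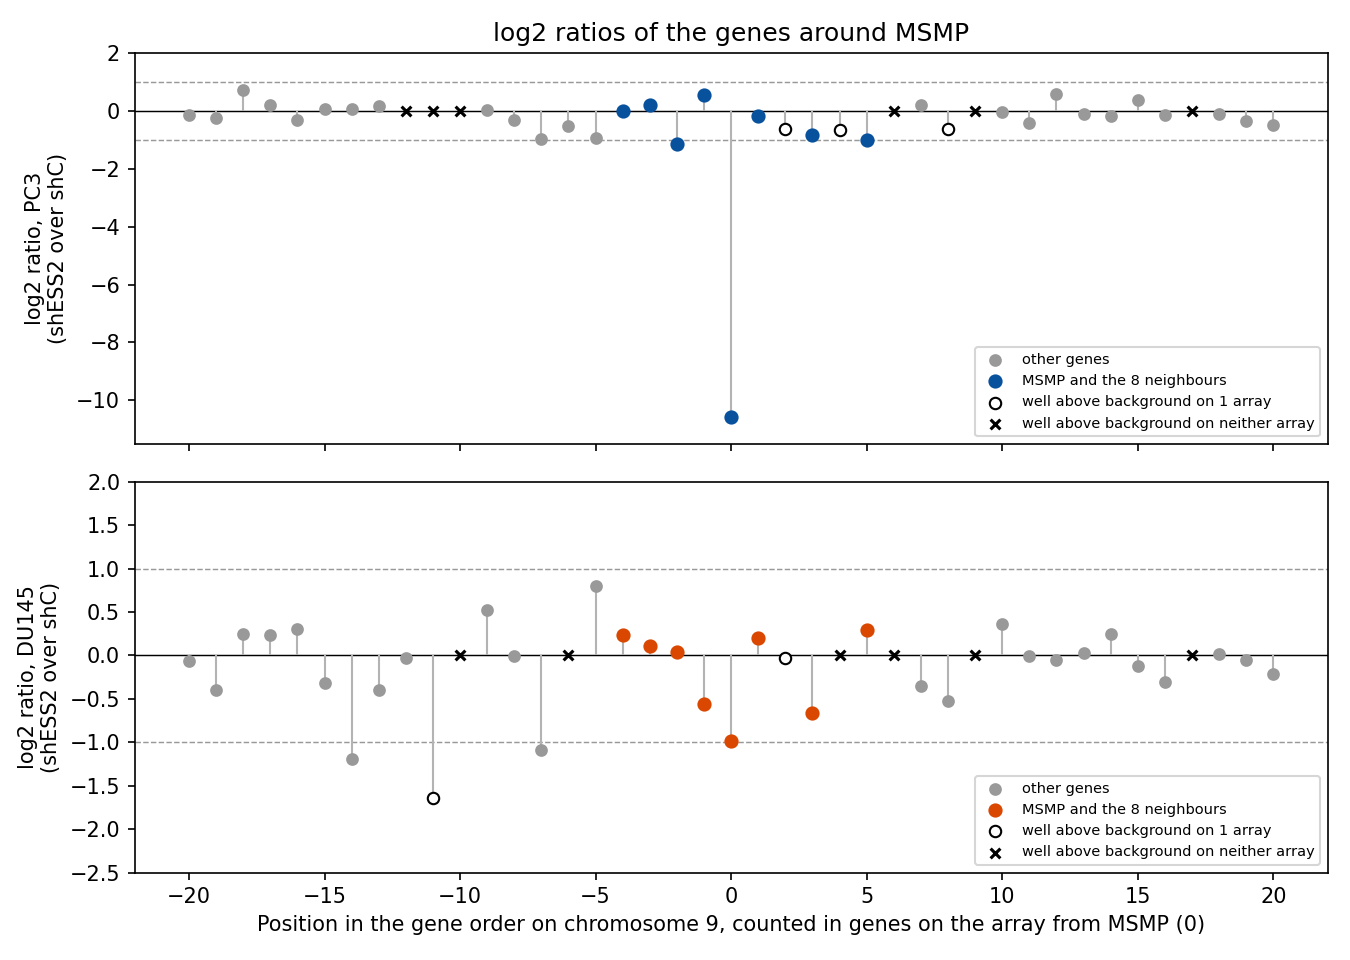
log2 ratio of knockdown over control (y axis, a separate range in each panel) against the position of each gene in the chromosome 9 order, counted from MSMP, in PC3 (top) and DU145 (bottom); dashed lines mark 2-fold, open circles genes well above background on 1 of the 2 arrays, and crosses genes well above background on neither. In PC3 MSMP reaches −10.58 while no other gene shown is below −1.15, and in DU145 MSMP at −0.99 lies within the range of the genes around it.

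A wider stretch gave the same picture. Of the 20 genes on either side of MSMP, 34 of 40 could be compared in PC3, and GBA2 and TMEM8B were the 2 past 2-fold, both lower, which is 5.88% against 3.87% of all genes. The nearest to that line among the other 26 were ARHGEF39, a guanine nucleotide exchange factor, with a log2 ratio of −0.97, and TPM2, a tropomyosin, with −0.94. The ratios of those 26 ran from −0.97 to 0.72. The count of 2 past 2-fold became 4 when scaled to the median, 3 with the plain signal of dim spots and 0 with normexp background correction. FAM221B, which lies between HINT2 and TMEM8B, showed a signal of 13.0 with PC3-shC and was not well above background in the other 3, at least 1.59-fold lower in PC3.

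In DU145 cells 34 of the 40 could again be compared, of which 3, or 8.82%, passed 2-fold downwards and 0 upwards, against 2.47% and 2.36% of all genes, and none of the 3 was among the 8 neighbours. CIMIP2B, a ciliary microtubule protein gene, had signals of 71.7 in DU145-shC and 32.2 in DU145-shESS2 cells, 2.29-fold lower. ARHGEF39 had 373 and 180, 2.13-fold lower. The noncoding RNA LOC101926948 had 24.8 in DU145-shC cells and was not well above background in DU145-shESS2 cells, at least 3.13-fold lower. The count of 3 was 0 with normexp background correction and 2 with the filter on both arrays or the mean of probes. Over chromosome 9 without MSMP, 25 of 684 genes compared in PC3 passed 2-fold downwards and 19 upwards, or 3.66% and 2.78% beside 3.87% and 3.88% of all genes. In DU145 16 and 14 of 706 did, or 2.27% and 1.98% beside 2.47% and 2.36%. With normexp the totals of 44 and 30 became 14 and 13.

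Over both lines together, limma with the cell line as a block had 1 residual degree of freedom. Of 17126 genes tested 0 were called at an adjusted p below 0.05, which is 0%, and 1047 had an unadjusted p below 0.05. HINT2 had the lowest p of the 8 neighbours, with a mean log2 ratio of −0.74, a p of 0.0165 and an adjusted p of 0.746, lower in 2 of 2 lines. The other 7 had mean log2 ratios from −0.55 for GBA2 to 0.16 for CREB3 in limma, with adjusted p between 0.749 and 0.999. RGP1, with ratios of opposite sign in the lines, had a mean of 0.00. MSMP was not tested, since its PC3 value chose it.

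**Figure D3:**
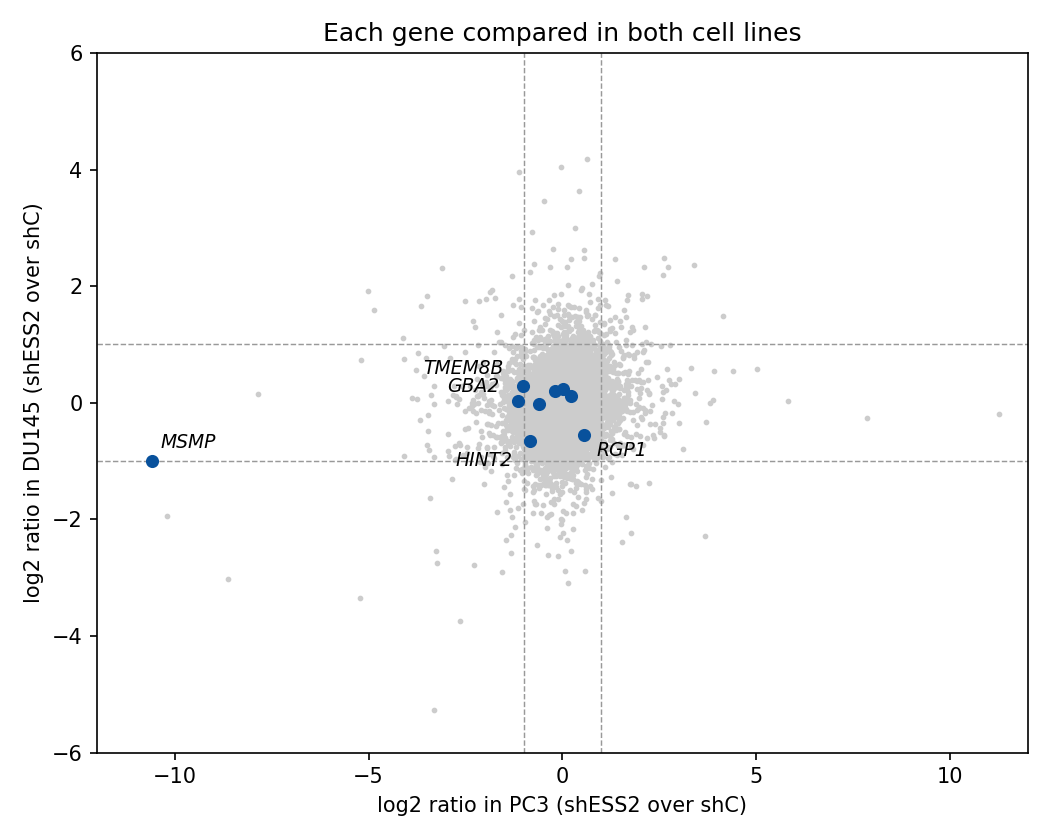
log2 ratio of knockdown over control in PC3 (x axis) against DU145 (y axis) for each gene compared in both lines (grey), with the 9 genes in blue and 5 of them named; dashed lines mark 2-fold. MSMP lies far to the left at −10.58 and −0.99, and the 8 neighbours lie between −1.15 and 0.56 in PC3 and between −0.66 and 0.29 in DU145.

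The genes with a pattern over the 4 arrays most like that of MSMP were not on chromosome 9. Likeness was the root mean square difference of log2 levels, each gene centred on its own mean. It was taken among 16129 genes well above background on the PC3-shC array, on which MSMP was highest. The 5 nearest were SAA1, BDKRB2, SAA2, CSF3 and NRAD1, at differences between 0.98 and 1.43. Each of them was not well above background on at least 1 array, so the differences rest in part on dim signals, and no order among the 5 is given. SAA1 and SAA2 encode acute-phase proteins and are near-identical copies whose probes may share targets. The signal of SAA1 was 9610 in PC3-shC cells and not well above background after knockdown, and in DU145 it had 81.0 in control and 21.6 in knockdown cells. BDKRB2, a bradykinin receptor, had 2820 in PC3-shC and 13.5 in PC3-shESS2 cells. The measure used the PC3 values that chose MSMP, so it selected genes that were highest in PC3-shC cells, and it is a description over 4 arrays.

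The partners of each member were read from lists of related genes. In the family of MSMP and its receptor axis, MSMB, CCR2, CCL7, CCL8 and CCL13 were not well above background on any array. CCL2, the best known ligand of CCR2, had a signal of 25.9 in DU145-shC cells and was not well above background on the other 3 arrays, at least 3.25-fold lower in DU145. CCL16 had log2 ratios of −0.17 in PC3 and 0.05 in DU145. In PC3-shC cells, where the MSMP signal was highest, that of CCR2 was thus not well above background.

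Of the genes related to NPR2, 6 of 11 could be compared in PC3 and 5 in DU145, and 0 passed 2-fold. The clearance receptor gene NPR3 had log2 ratios of −0.04 and 0.17. Among 9 genes of glucosylceramide turnover beside GBA2, 8 could be compared in each line and 0 passed 2-fold. UGCG, which makes glucosylceramide, had log2 ratios of 0.69 in PC3 and 0.05 in DU145.

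All 7 genes of the CREB3 family and its proteases could be compared and 0 passed 2-fold in either line. CREB3L4, a prostate-enriched relative of CREB3, had the lowest ratios of them, −0.81 in PC3 and −0.61 in DU145. Of 15 talin partners, 14 could be compared in PC3, where 1 was lower by more than 2-fold, or 7.14% beside 3.87% of all genes. All 15 could be compared in DU145, where 1 was higher, or 6.67% beside 2.36% of all genes. ITGB3, the integrin beta 3 chain, had 417 in PC3-shC, 80.8 in PC3-shESS2, 84.7 in DU145-shC and 160 in DU145-shESS2 cells, a log2 ratio of −2.51 in PC3 and 0.88 in DU145. FERMT3, a kindlin of blood cells, had 10.1 and 24.8 in DU145, 2.39-fold higher. Talin itself, TLN1, stayed within 2-fold in both lines.

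RIC1, the partner of RGP1, had log2 ratios of 0.01 in PC3 and 0.46 in DU145. Of the 4 genes listed with RGP1, 1 was lower by more than 2-fold in PC3, or 25.0% beside 3.87% of all genes. This was RAB6B, from 16.6 in PC3-shC cells to a signal not well above background in PC3-shESS2 cells, at least 2.03-fold lower. That bound lies close to the 2-fold line and rests on a dim spot. RAB6A had log2 ratios of 0.48 and −0.06. In the HIT family of HINT2, 0 of 4 in PC3 and 0 of 5 in DU145 passed 2-fold, and HINT1 had log2 ratios of −0.12 and −0.14. The TMEM8 relatives PGAP6 and MYMK did not pass 2-fold in either line.

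Among markers of other cell types, CD3E, COL3A1 and DCN were not well above background on any array. COL1A1 was on all 4, with 265 and 197 in PC3-shC and PC3-shESS2 and 84.7 and 75.4 in DU145-shC and DU145-shESS2 cells, and so was PTPRC, with 59.7 and 60.0 in PC3 and a log2 ratio of 0.10 in DU145. PECAM1, a marker of endothelial and blood cells, was at 338 in PC3-shC and 16.4 in PC3-shESS2 cells, and CD14, a monocyte marker, had 221 and 54.7 there but 172 and 274 in DU145-shC and DU145-shESS2 cells. VWF and CDH5, which define endothelial cells, lay between 24.4 and 53.3 on all 4 arrays. EPCAM had a log2 ratio of −2.61 in DU145 and −0.38 in PC3. In PC3-shC, PC3-shESS2, DU145-shC and DU145-shESS2 cells the summed signal was 410, 100.1, 60.2 and 70.7 over the 3 endothelial markers, 291, 124, 209 and 325 over the 4 leukocyte markers, and 270.4, 202, 89.1 and 79.5 over the 3 fibroblast markers. The part of these genes in the MSMP result was not tested. The reference genes GAPDH and ACTB had log2 ratios of 0.18 and 0.15 in PC3 and of 0.04 and −0.04 in DU145.

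**Figure D4:**
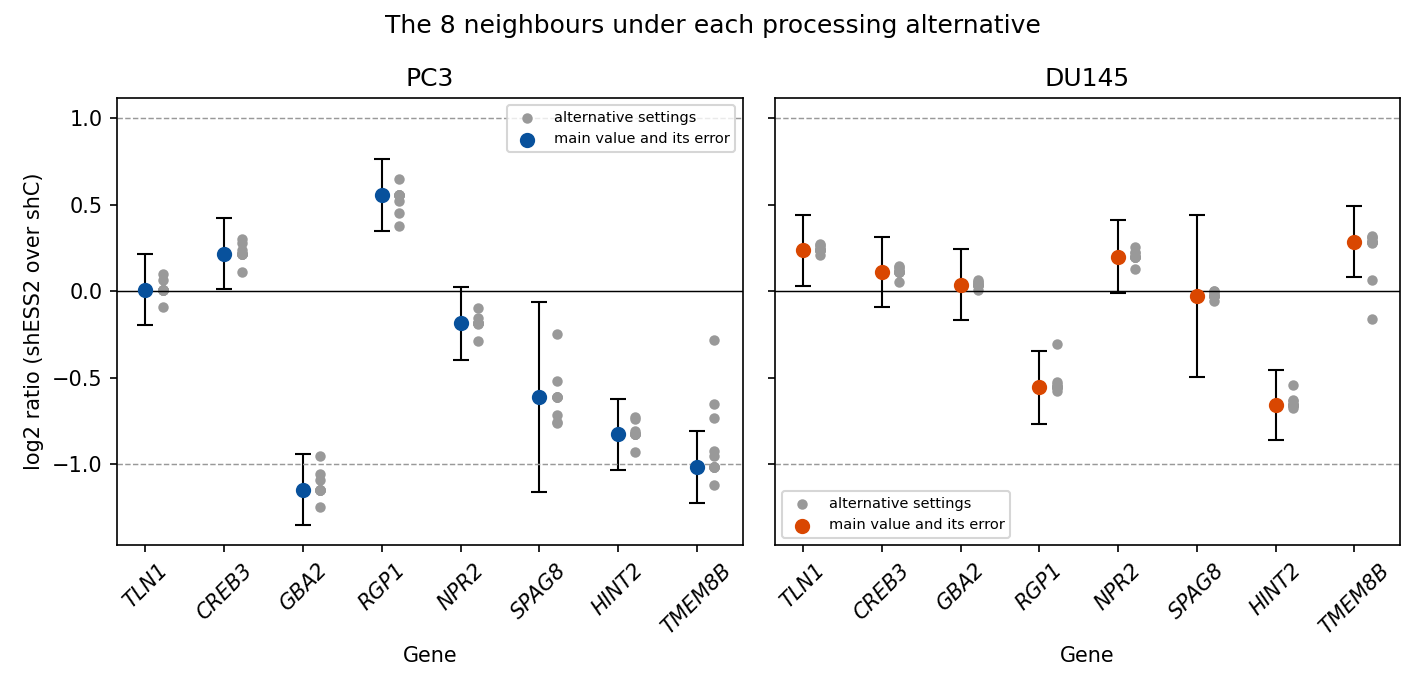
log2 ratio of each of the 8 neighbours in PC3 (left) and DU145 (right), with the main value in colour, a bar for the error of its signals, grey points for the other ways of processing and dashed lines at 2-fold. GBA2 lies between −1.25 and −0.95 in PC3, and TMEM8B spreads from −1.12 to −0.28 because its probes differ.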

How the data were processed

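RNA from 4 cultures was labelled with Cy3 from 0.1 µg of total RNA and hybridized to 1-colour Agilent arrays. The authors deposited the scanner output of Agilent Feature Extraction (12.1.0.3 for PC3 and 12.0.3.1 for DU145), in which each spot has a background-subtracted intensity not scaled between arrays, and a table of scaled intensity values. The scaled columns have medians of 41.6, 47.5, 77.6 and 77.3 and equal the processed signal times 1 constant each. Here log2 intensity was taken, and the 75th percentile of the 60901 non-control spots (263 and 290 for PC3, 212 and 218 for DU145) was subtracted. Control and outlier spots were left out, which removed 5 probes. Of 58201 probes, 35080 matched a RefSeq symbol by accession. The brightest probe stood for a gene. A comparison within a line needed 1 or both arrays well above background, and a dim signal under the lowest such signal of its array was raised to it.

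The precision is limited by the number of arrays. Single spots of a probe gave a median SD of the log2 ratio of 0.084 in PC3 (286 probes) and 0.0821 in DU145 (283 probes). The members and gene lists were chosen with earlier results of these data known. The genes named are the 9 members, ESS2, reference genes, some of the marker genes and the 5 nearest to MSMP in pattern. Genes past 2-fold among 20 on either side of MSMP and in the lists of related genes are also named. Others were named after their values were seen. limma 3.58.1 in R 4.3.3 was fitted with a block for cell line and Benjamini-Hochberg adjustment. Alternatives were other scalings, background corrections, filters, probe rules, the authors' values and other blocks. The calculations were tested on simulated data. Python 3.11.15, numpy 2.4.6, pandas 2.3.3 and matplotlib 3.10.9 were used. Some marker and list genes are not reported here.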

Additional observations from a re-analysis of the deposited data

Results flagged for a closer look

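RGP1 and TMEM8B had log2 ratios of opposite sign in the 2 cell lines, each larger than the error of its signals. For RGP1 the ratio was 1.11 higher on the log2 scale in PC3 than in DU145, and for TMEM8B the PC3 ratio minus the DU145 ratio was −1.30 with the brighter probe. With 1 array per condition neither difference was tested. The other probe of TMEM8B was below 0 in both lines.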

How the results depend on the processing

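MSMP stayed lower by more than 2-fold in PC3 under all 10 alternatives. The filter, dim-spot, probe and outlier rules could not change its ratio, as its 1 probe was well above background and unflagged on each array. The log2 ratio was −10.28 after quantile normalization and −9.84 after normexp background correction with an offset of 50. In DU145 its ratio was −0.67 with normexp and −1.05 with quantile normalization, the 1 alternative that took it past 2-fold. The count of neighbours past 2-fold in PC3 was 1 with quantile normalization, with the mean of probes and with the authors' values, and 0 with normexp. The count within 20 genes of MSMP in PC3 was 4 when scaled to the median, 1 with quantile normalization, the mean of probes and the authors' values, and 0 with normexp, and in DU145 it was 0 with normexp. Over chromosome 9 normexp gave 14 genes in PC3 and 13 in DU145, beside 44 and 30. Of 160 ratios of the 8 neighbours under alternatives, 154 moved by less than the error of the ratio and 6 moved by more. Of the 160, 4 took the other sign. Many of the 154 could not move, so this count does not measure stability. A gene with 1 probe, well above background on both arrays, keeps its ratio when dim spots are treated differently or probes averaged. GBA2 in PC3 stayed at −1.15 there, and ran from −1.25 when scaled to the median to −0.95 with normexp. In limma 0 genes were called under every alternative, the smallest adjusted p lay between 0.0532 and 1, and that of HINT2 between 0.0719 and 1. Both low ends came from the setting with no filter on dim genes, where 8912 of 25121 genes had an unadjusted p below 0.05 in limma. Under the other alternatives the adjusted p of HINT2 in limma was 0.649 or higher. The slide as a block gave the same fit as the cell line, as each line was on its own slide. The block pairs knockdown with control within each cell line, as the labels give no replicate numbers. Without it 0 genes were called and 23 had an unadjusted p below 0.05 in limma. Signals near background, such as those of SPAG8, allow only bounds or ratios with a wide error.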
